A study of Mus musculus with 10 samples.

Results

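Ipsilateral brain tissue of Cd93 knockout (KO) mice was set against that of wild-type (WT) mice in a mouse model of stroke, on 4 of the 10 arrays of the study. The members are the arrays labelled as ipsilateral, 1 for each genotype under each of 2 protocols, and each KO array was paired with the WT array of the same protocol. In this model, middle cerebral artery occlusion (MCAo), blood flow in the vessel is stopped and later restored, and the hemisphere it feeds is the ipsilateral one. The 48 h pair, KO and WT, had a 60 min MCAo followed by 48 h of reperfusion. The 72 h pair, KO and WT, had a 30 min MCAo followed by 72 h of reperfusion. The other 6 arrays, KO and WT contralateral hemispheres of each protocol and KO and WT untreated brain, are called uninjured here and served as background. All mice were 10 weeks old, and the strain of both genotypes is given as C57/Bl6. The sources used here do not say how the Cd93 allele was made, nor whether the RNA on an array came from a single mouse or from several. Other differences between the KO and WT lines cannot be told apart from the Cd93 allele, and occlusion time cannot be told apart from reperfusion time.

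CD93 is a membrane glycoprotein with a C-type lectin-like domain, found on endothelial cells and on cells of the myeloid lineage. It is known for roles in endothelial adhesion and vessel growth, in part through its ligand multimerin 2, and for the clearance of dying cells. After an ischaemic stroke, endothelium displays adhesion molecules, chemokines draw leukocytes out of the blood, microglia and recruited phagocytes clear debris, and astrocytes around the lesion become reactive.

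Levels are given as log2 of normalized bead intensity, and differences as KO minus WT on the same log2 scale. Of 46373 probes, between 12811 and 16310 were detected per array, with raw median intensities between 51.4 and 58.9. The brightest detected probe stood for each of 9351 genes. Markers of neurons, astrocytes, oligodendrocytes, microglia and endothelium were used to check the tissue: 11 of the 15 were measured, and these 11 were detected on all 4 ipsilateral arrays. Nefl and P2ry12 were not detected. Since each group is 1 array, a difference within 1 pair has no replicate and no test. A gene was counted as past 2-fold where its log2 difference was at least 1 in size. An array below background was first raised to the lowest detected level of that array, so that such a fold is a lower bound.

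Cd93 was lower in KO than in WT in all 5 conditions. Its level was 6.21 on the KO array and 8.64 on the WT array at 48 h, and 6.23 on the KO array and 7.81 on the WT array at 72 h. The probe was detected on both ipsilateral KO arrays, but not on the KO arrays of contralateral or untreated tissue, where the log2 levels were 5.38, 5.10 and 5.33 against 6.36, 6.16 and 6.90 in WT. Cd93 was thus 5.37-fold lower in KO at 48 h and 2.99-fold lower at 72 h, and in limma the mean of both pairs fell by 2.0 ± 0.21 (SE, adjusted p = 0.00377). A dimmer second Cd93 probe gave differences of -1.70 and -1.18. Where either probe lies relative to the deletion is not known here, so these levels check the labels only as far as the probes can.

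At 48 h, 29 genes (0.31% of those tested) were past 2-fold, 12 higher in KO (0.128%) and 17 lower (0.182%). At 72 h, 91 genes (0.973%) were past 2-fold, 67 higher in KO (0.717%) and 24 lower (0.257%). The spread of the KO minus WT difference over all genes was also narrower at 48 h, with an SD of 0.226, than at 72 h, with an SD of 0.313. The contralateral pair of the 72 h protocol had the same SD, 0.313. Both ipsilateral pairs shared 24 genes (0.257%) past 2-fold the same way, 11 higher in KO (0.118%) and 13 lower (0.139%), and no gene was past 2-fold in opposite directions. These 24 make up 82.8% of the 48 h genes and 26.4% of the 72 h genes. Only Arc (0.0107%) was lower at 48 h alone, with no gene higher at 48 h alone, whereas 48 genes (0.513%) were higher and 9 (0.0962%) lower at 72 h alone. "Alone" means past 2-fold in 1 pair and under 1.5-fold, or of the other sign, in the other pair. The remaining genes lay between these limits, 4 of the 48 h genes and 10 of the 72 h genes. Without background correction the counts past 2-fold were 16 at 48 h, 53 at 72 h and 14 in both. With median centring in place of quantile normalization, 23 genes were higher and 15 lower in KO at 48 h, and 54 higher and 31 lower at 72 h.

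**Figure D1:**
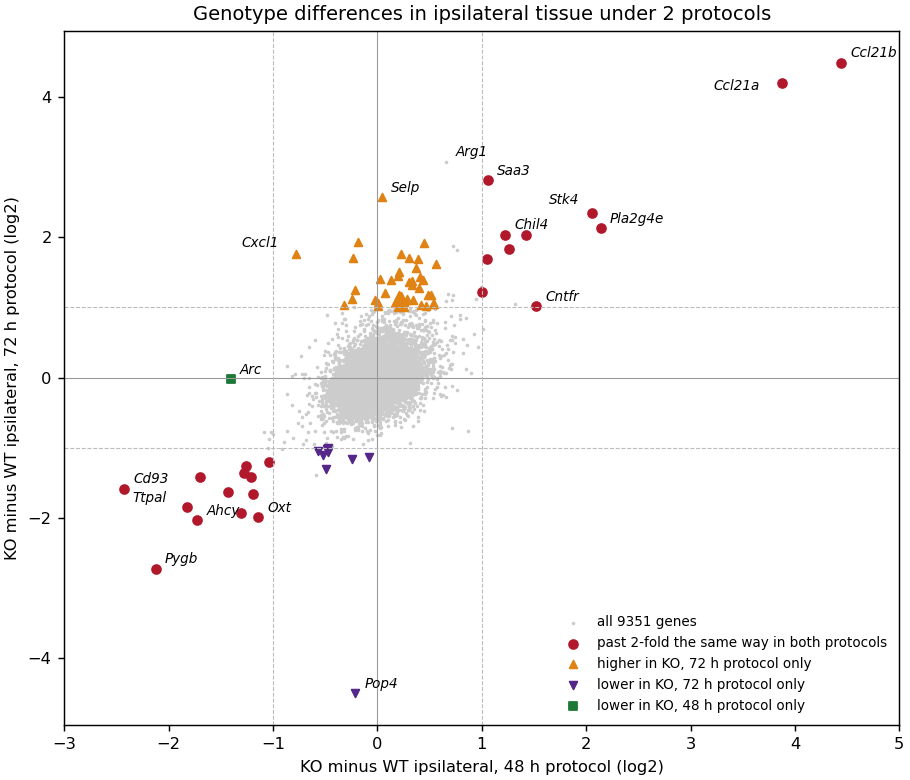
Each point is 1 of 9351 genes, placed by its KO minus WT log2 difference in ipsilateral tissue under the 48 h protocol (x axis) and the 72 h protocol (y axis); dashed lines mark 2-fold. Red circles mark the 24 genes past 2-fold the same way in both pairs, triangles the 48 higher and 9 lower genes of the 72 h protocol only, and the square Arc; Ccl21a and Ccl21b lie apart at the upper right.

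Across all genes the differences of the 48 h and 72 h pairs, which share no array, had a Pearson r of 0.45 and a Spearman rho of 0.34, and r was 0.36 over the 9327 genes outside the shared 24. This is a correlation over genes of 4 arrays normalized together, and genes are not independent replicates. The difference in ipsilateral tissue was also correlated over genes with that in contralateral tissue of the same protocol, with r of 0.51 at 48 h and 0.50 at 72 h. Across protocols r was lower, 0.28 for 48 h ipsilateral with 72 h contralateral tissue and 0.29 for 72 h ipsilateral with 48 h contralateral tissue.

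The mean of both pairs was tested with limma, whose error is the variation of the genotype difference between the 2 ipsilateral pairs and among the 3 uninjured pairs. It called 36 genes (0.385%) at an adjusted p under 0.05, 16 higher in KO (0.171%) and 20 lower (0.214%), and 932 genes (9.97%) had an unadjusted p under 0.05. Of the 24 shared genes, 21 were among the 36. The exceptions among the 24 were Saa3 (adjusted p = 0.0798), Avp (0.154) and S100a8 (0.48). Leaving out either 72 h ipsilateral array reduced the 36 calls to 8, which were Ccl21a, Ccl21b, Stk4, Pla2g4e, Pygb, Ahcy, Spint1 and Cd93. Leaving out either 48 h ipsilateral array gave 34 calls, 19 of them shared with the 36.

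The highest genes in KO were Ccl21b and Ccl21a, which encode near-identical forms of CCL21, a chemokine that guides CCR7-bearing dendritic cells and T cells. Ccl21b was at 9.07 in KO and 4.63 in WT at 48 h, and at 9.26 in KO and 4.78 in WT at 72 h. Ccl21a was at 8.58 in KO and 4.70 in WT at 48 h, and at 8.74 in KO and 4.55 in WT at 72 h. Both genes were detected on every KO array of the study and on no WT array. The KO level was at least 17.0-fold (48 h) and 19.9-fold (72 h) the WT level for Ccl21b. For Ccl21a it was at least 12.1-fold and 13.9-fold. In limma both rose, Ccl21b by 4.46 ± 0.15 (adjusted p = 2.88e-06) and Ccl21a by 4.03 ± 0.15 (adjusted p = 3.35e-06). These fitted values take the WT levels below background as measured. With the floor, the ipsilateral differences were at least 4.09 and 4.32 for Ccl21b and at least 3.60 and 3.80 for Ccl21a. In the 3 uninjured pairs the lower bounds lay between 4.19 and 4.75 for Ccl21b and between 3.78 and 4.50 for Ccl21a. Since probes of these genes may bind RNA of either copy, which copy the signal came from is uncertain, and no probe was named for Ccl21c. Cntfr, which encodes the receptor subunit for ciliary neurotrophic factor, lies 7 measured genes from Ccl21a on chromosome 4. Cntfr was at 7.39 in KO and 5.87 in WT at 48 h, and at 7.14 in KO and 6.12 in WT at 72 h, a rise of 1.27 ± 0.19 in limma (adjusted p = 0.025).

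Of the 24 shared genes, 16 lie on chromosome 2, which carries Cd93 and 8.06% of the genes tested. They are 2.12% of the 754 genes tested on that chromosome, against 0.0931% (8 genes) of those elsewhere. The limma calls were placed alike, 22 of the 36 on chromosome 2. Along the order of measured genes these called genes ranged from 177 genes before Cd93 to 113 after it. Within 25 measured genes on each side of Cd93, 4 of 50 genes (8%) were called, all lower in KO. Called were 0.385% of all genes and 22 of the 754 on chromosome 2. Within 10 and within 50 genes on each side the share was 5%. Chromosomes and gene order are those of the RefSeq annotation of GRCm38.p6, and no coordinates of these genes are given because the array files name no build.

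After Pygb, Cd93 itself had the second largest mean fall on chromosome 2. Pygb, brain glycogen phosphorylase, was at 6.91 in KO and 9.04 in WT at 48 h, and at 6.75 in KO and 9.47 in WT at 72 h. Ahcy, which hydrolyses S-adenosylhomocysteine, was at 6.01 in KO and 7.74 in WT at 48 h, and at 5.44, below background, in KO and 7.47 in WT at 72 h. The 2 KO arrays lay below both WT arrays for each gene. In limma Pygb fell by 2.42 ± 0.15 (adjusted p = 0.00013) and Ahcy fell by 1.88 ± 0.12 (adjusted p = 0.000138). Further genes of this chromosome also fell in limma. Zcchc3, a zinc finger protein that takes part in sensing of foreign nucleic acid, had differences of -1.31 at 48 h and -1.93 at 72 h (adjusted p = 0.00276). Rbbp9, a serine hydrolase, had differences of -1.19 and -1.66 (adjusted p = 0.00241), and Zfp341, a zinc finger transcription factor, of -1.28 and -1.37 (adjusted p = 0.00995). Pla2g4b, a cytosolic phospholipase A2 of a gene cluster, had differences of -1.21 and -1.41 (adjusted p = 0.00223). Its neighbour in that cluster, Pla2g4e, an N-acyltransferase of the same family, was higher in KO: 9.16 in KO and 7.02 in WT at 48 h, and 9.19 in KO and 7.07 in WT at 72 h. Pla2g4e rose by 2.13 ± 0.12 (adjusted p = 7.54e-05). Stk4, the Hippo pathway kinase MST1, was at 7.99 in KO and 5.94 in WT at 48 h, and at 8.55 in KO and 6.21 in WT at 72 h. Stk4 rose by 2.20 ± 0.12 (adjusted p = 5.91e-05). The genes of chromosome 2 thus changed in both directions, 18 lower and 5 higher in KO among the 23 that limma called or that were past 2-fold in both pairs.

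For some of the genes called by limma the call belongs to 1 probe. Ttpal, a relative of the alpha-tocopherol transfer protein, had differences of -1.83 and -1.84 by its brightest probe, but mean differences of -0.34 and 0.23 by the other probes, neither past the limma threshold. Ppp1r16b, a regulatory subunit of protein phosphatase 1 in endothelium, had differences of 1.05 and 1.69 by the brightest probe and 0.07 and 0.29 by the other. Zfp106 and Pisd-ps3, which fell by their brightest probes, had differences of -0.09 and -0.05 (adjusted p = 0.936), and of 0.03 and 0.14 (adjusted p = 0.856), by a second probe. The dipeptidase gene Dpep2 kept its direction with a second probe (0.50 and 1.51) but not its limma call (adjusted p = 0.126). Some other genes kept both their direction and their limma call with a second probe. Tmem181a, a membrane protein gene of chromosome 17, had differences of -1.26 in both pairs by its brightest probe, and of -2.07 and -1.92 by a second probe, and near-identical copies of this gene may share the signal. A second probe of Zcchc3 gave -0.94 and -1.03, and one of Ccl21b gave 3.96 and 4.23.

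**Figure D2:**
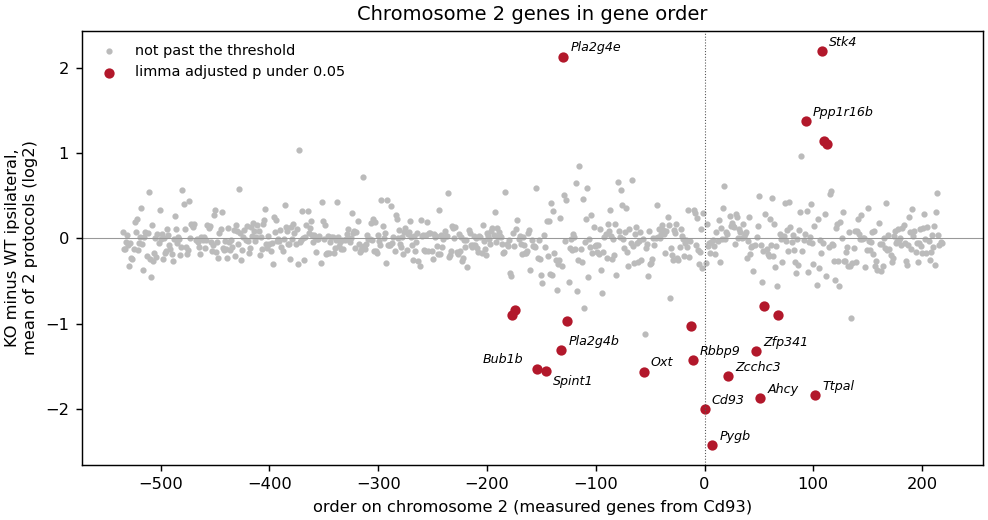
Genes measured on chromosome 2 in gene order (x axis, counted in measured genes from Cd93, which is at 0), with the mean KO minus WT log2 difference of both ipsilateral pairs on the y axis. Red points passed the limma threshold; they lie on both sides of Cd93, from -177 to 113 genes away, most of them below 0.

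The shared genes were then set against the uninjured pairs, whose differences took no part in choosing them. The uninjured arrays did enter the normalization, the detection filter and the choice of probe. In 11 of the 24, the difference was past 2-fold the same way in all 3 uninjured pairs, a count not made over all genes. These were Ccl21a, Ccl21b, Cntfr, Tmem181a and 7 genes of chromosome 2 (Pygb, Ahcy, Zcchc3, Rbbp9, Pla2g4e, Stk4 and Ppp1r16b). For Pygb, for example, the uninjured differences lay between -2.14 and -1.93. Pla2g4b is not among the 11: it was below background in KO in each uninjured pair, and its bounds there lay between -0.94 and -0.86. Sys1, a Golgi membrane protein gene of chromosome 2 that rose by 1.11 ± 0.13 (adjusted p = 0.00715), had uninjured differences from 0.82 to 1.17.

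In 3 of the 24 genes, Spint1, Oxt and Avp, no uninjured pair differed past 1.5-fold in the direction of the ipsilateral pairs. Spint1, an inhibitor of serine proteases such as hepatocyte growth factor activator, was at 6.74 in KO and 8.44 in WT at 48 h, and at 6.78 in KO and 8.20 in WT at 72 h. In the uninjured pairs the differences of Spint1 lay between -0.35 and 0.01. Its mean ipsilateral difference fell by 1.55 ± 0.14 (adjusted p = 0.00139). The ipsilateral minus uninjured difference, -1.34 ± 0.18, had an unadjusted p of 3.36e-05 and an adjusted p of 0.197 in limma. For this interaction limma called 0 genes, and 361 genes (3.86%) had an unadjusted p under 0.05. It called 4 genes without either 48 h ipsilateral array and 1 without either 48 h contralateral array. No difference was therefore shown to be particular to ipsilateral tissue.

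Oxt and Avp encode the hypothalamic hormones oxytocin and vasopressin and are neighbours among the measured genes of chromosome 2. Oxt was at 6.94 in KO and 8.08 in WT at 48 h, and at 6.86 in KO and 8.85 in WT at 72 h. Avp was at 6.27 in KO and 7.31 in WT at 48 h, and at 6.38 in KO and 7.58 in WT at 72 h. Both KO arrays were thus below both WT arrays. In contralateral tissue the order was not the same: the differences were -0.13 at 48 h and 0.77 at 72 h for Oxt, and 0.18 and 1.10 for Avp. Oxt fell by 1.56 ± 0.23 (adjusted p = 0.0264), but without either 72 h ipsilateral array the adjusted p was 0.807. These genes are expressed in a small part of the brain, and how much hypothalamus each sample held is not given. The 23 measured markers of other brain regions, Oxt and Avp among them, had median differences of -0.11 at 48 h and 0.04 at 72 h.

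**Figure D3:**
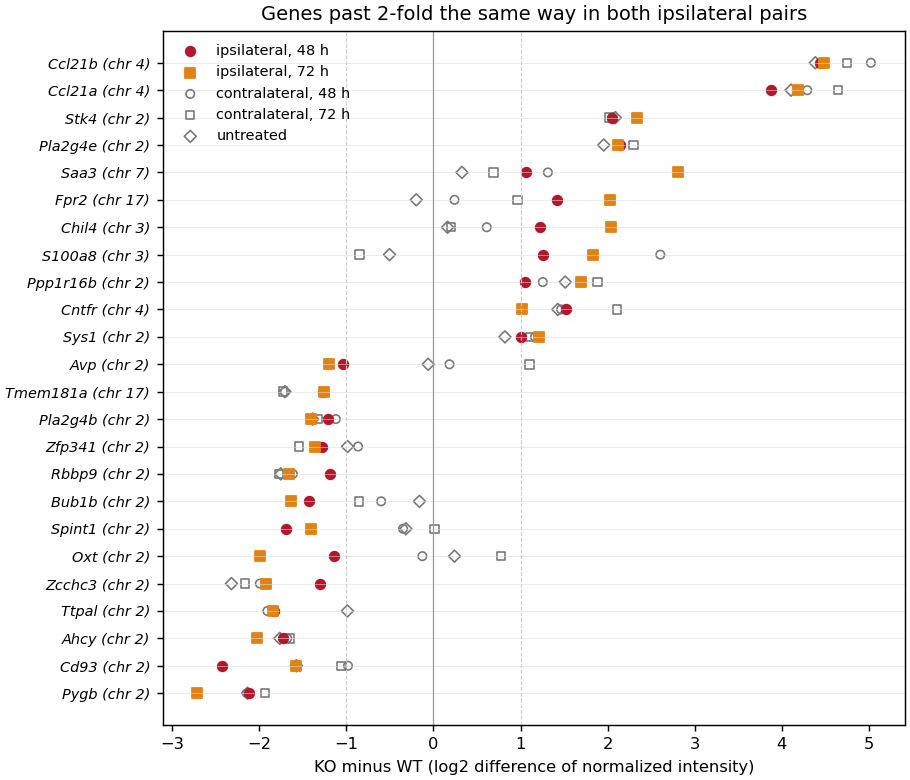
KO minus WT log2 differences of the 24 genes past 2-fold the same way in both ipsilateral pairs (filled circles 48 h, filled squares 72 h), with the uninjured pairs as open symbols; dashed lines mark 2-fold. The open symbols lie with the filled ones for Ccl21a, Ccl21b, Stk4, Pla2g4e and Pygb, and away from them for Chil4, Fpr2, Spint1, Oxt and Avp.

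Of the remaining shared genes, 4 were higher in KO: Fpr2, Chil4, Saa3 and S100a8. Fpr2, a formyl peptide receptor of neutrophils and monocytes, was at 7.30 in KO and 5.88 in WT at 48 h, and at 6.91 in KO and 4.89, below background, in WT at 72 h. Chil4, a chitinase-like protein of activated macrophages, was at 8.22 in KO and 7.0 in WT at 48 h, and at 8.52 in KO and 6.49 in WT at 72 h. Both KO arrays were above both WT arrays for each gene. Fpr2 rose by 1.73 ± 0.25 (adjusted p = 0.0206) and Chil4 rose by 1.63 ± 0.19 (adjusted p = 0.00715). The near-identical Chil3 may share signal with the Chil4 probes, the second of which gave differences of 1.02 and 1.58.

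Saa3, an acute-phase serum amyloid A, was at 9.08 in KO and 8.01 in WT at 48 h, and at 8.89 in KO and 6.08 in WT at 72 h. S100a8, a calgranulin of neutrophils, was at 9.08 in KO and 7.82 in WT at 48 h, and at 8.42 in KO and 6.58 in WT at 72 h. Its partner S100a9 was at 6.75 in KO and 5.44 in WT at 48 h, and at 5.92 in KO and 4.87, below background, in WT at 72 h. Every KO array was above its own WT array, but none of the 3 passed limma (adjusted p = 0.0798 for Saa3, 0.48 for S100a8 and 0.282 for S100a9). S100a8 also differed in contralateral tissue, by 2.61 at 48 h and -0.85 at 72 h.

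Among limma calls under 2-fold in at least 1 pair, 7 genes rose and 8 fell. S100a4, a calcium-binding protein of macrophages and fibroblasts, had a difference of 0.85 in each pair (adjusted p = 0.0123). Clec4d, a C-type lectin receptor of macrophages and neutrophils, had differences of 0.95 and 1.12 (adjusted p = 0.00493). The chemokine genes Ccl5 and Ccl6 had differences of 1.01 and 0.69 (adjusted p = 0.025), and of 0.71 and 1.10 (adjusted p = 0.0205). Slpi, an inhibitor of neutrophil elastase that lies on chromosome 2, had differences of 0.99 and 1.29 (adjusted p = 0.00702). The dipeptidase gene Dpep2 and the protease inhibitor gene Spink8 complete the 7. S100a4, Clec4d, Ccl5, Ccl6, Slpi and Dpep2 were below background on all 6 uninjured arrays. In limma, the part of their error from the uninjured pairs thus came from levels below background. The 8 that fell were Polr3f, Zfp106, Rbm12, Cd59a, Qser1 and Pigu of chromosome 2, Rasal1 of chromosome 5 and Pisd-ps3. For Cd59a, which shields cells from complement, the levels were 9.30 in KO and 10.32 in WT at 48 h, and 9.12 in KO and 9.89 in WT at 72 h (adjusted p = 0.0278).

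The genes of the 72 h protocol only were mostly higher in KO. For the 48 higher genes the median difference was 1.17 at 72 h, by which they were chosen, against 0.24 at 48 h, 0.37 in contralateral tissue at 72 h and 0.12 in untreated brain. Over all genes these medians were -0.02 at 72 h, -0.01 at 48 h, -0.02 in contralateral tissue and 0.02 in untreated brain. The WT 72 h array was the lowest of the 4 ipsilateral arrays in 47 of the 48, against 23.5% of all genes. The KO 72 h array was the highest of the 4 in 28, against 25.3% of all genes. The KO 72 h level was within 2-fold of the mean of the 48 h levels in 45 of the 48 genes, and the WT 72 h level in 22. This order is in part fixed by how the genes were chosen, since WT had to be under KO at 72 h. In 19 of the 48 the contralateral 72 h pair also differed past 1.5-fold the same way, and in 9 past 2-fold, counts not made over all genes. In 11 both contralateral arrays were below background.

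Whether the genotype difference itself differed between the protocols was tested in limma as genotype by protocol, with an error that comes from the 3 uninjured pairs alone. It called 3 genes (0.0321%), Cxcl1, Selp and Arg1, and 204 genes (2.18%) had an unadjusted p under 0.05. Of the 48 genes, 2 were called, but the choice of the 48 used this same contrast, so nothing is read from that count. In simulated data the test called 0% of genes with a true log2 difference between protocols of 1, and 50% of those with 2. Selp encodes P-selectin, which endothelium and platelets display to catch leukocytes. Selp was at 7.77 in KO and 7.72 in WT at 48 h, and at 7.58 in KO and 5.01, below background, in WT at 72 h. The WT array at 72 h was thus the only ipsilateral array without detected Selp, and the KO level at 72 h was at least 5.94-fold higher. The 48 h minus 72 h difference of Selp was -2.53 ± 0.26 (adjusted p = 0.0307). Cxcl1 encodes a chemokine that attracts neutrophils. Cxcl1 was at 9.06 in KO and 9.84 in WT at 48 h, and at 8.56 in KO and 6.81 in WT at 72 h. Its difference was lower in KO at 48 h (-0.78) and higher at 72 h (1.75), and the 48 h minus 72 h difference was -2.54 ± 0.25 (adjusted p = 0.0307). Arg1 encodes arginase 1, an enzyme of alternatively activated macrophages. Arg1 was at 7.69 in KO and 7.03 in WT at 48 h, and at 8.58 in KO and 5.51, below background, in WT at 72 h. The KO level of Arg1 at 72 h was at least 8.41-fold higher, the 48 h minus 72 h difference was -2.41 ± 0.27 (adjusted p = 0.0415), and with a 48 h difference of 0.66 Arg1 is not among the 48. The 3 genes were below background on all 6 uninjured arrays, the source of the error of this test. All 3 calls were lost without either 72 h contralateral array, with adjusted p-values of 0.433 for Cxcl1 and Selp and 0.515 for Arg1. The test called 16 genes without either 48 h contralateral array and 5 without either untreated array.

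The promoters of Cxcl1 and Selp are shown because these are the genes of the 48 that passed this test. They come from the RefSeq table of GRCm38.p6, 250 bases before to 50 after the gene's start, at chr5:90890995-90891294 (plus strand) and chr1:164115014-164115313 (plus strand). Capitals mark matches on either strand to a consensus of the site bound by NF-kappa-B, and the other motif searched, also on both strands, was TTCNNNGAA, a short form of the site bound by STAT factors.
Cxcl1: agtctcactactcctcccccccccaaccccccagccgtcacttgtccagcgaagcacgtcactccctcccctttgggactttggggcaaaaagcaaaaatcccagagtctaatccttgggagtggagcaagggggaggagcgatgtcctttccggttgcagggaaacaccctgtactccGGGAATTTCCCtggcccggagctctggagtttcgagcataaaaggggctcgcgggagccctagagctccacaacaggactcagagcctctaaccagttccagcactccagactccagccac
Selp: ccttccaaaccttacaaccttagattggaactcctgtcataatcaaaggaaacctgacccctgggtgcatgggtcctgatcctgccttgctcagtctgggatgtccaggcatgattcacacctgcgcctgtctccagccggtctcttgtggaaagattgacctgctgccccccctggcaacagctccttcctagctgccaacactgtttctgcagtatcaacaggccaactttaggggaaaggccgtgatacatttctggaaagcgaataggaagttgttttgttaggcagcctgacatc
The NF-kappa-B consensus had 2 matches in the Cxcl1 window, which overlap on opposite strands, and 0 in the Selp window, and TTCNNNGAA had 0 matches in either. Of the 35 genes among the 48 with a promoter in the table, 4 (11.4%) held the NF-kappa-B consensus, against 12.2% of the 7605 tested genes with a promoter and 9.55% of all 27025 promoters. TTCNNNGAA was held by 3 (8.57%), against 8.28% of the tested genes and 9.55% of all promoters. Both shares of the 48 genes were near those of all genes.

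**Figure D4:**
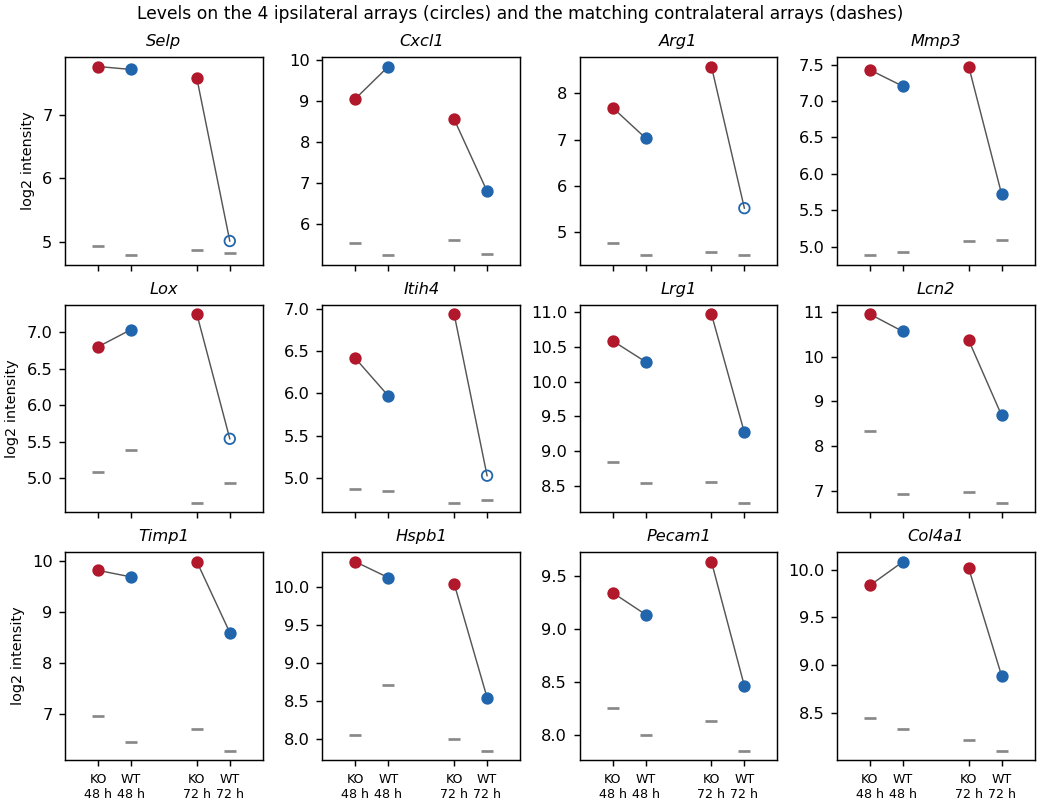
Log2 levels (y axis, own scale in each panel) of 12 genes on the ipsilateral arrays, KO (red) left of WT (blue) for each protocol, with open circles below background and grey dashes for the contralateral array of the same genotype and protocol. In each panel the WT 72 h circle is the lowest of the 4, while the pairs at 48 h lie close together or, for Cxcl1, Lox and Col4a1, in the opposite order.

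Other genes of the 72 h set encode matrix enzymes and secreted proteins of injury. Mmp3, a matrix metalloproteinase, was at 7.43 in KO and 7.20 in WT at 48 h, and at 7.47 in KO and 5.72 in WT at 72 h. Lox, which cross-links collagen, was at 6.80 in KO and 7.04 in WT at 48 h, and at 7.25 in KO and 5.54, below background, in WT at 72 h. Itih4, an acute-phase inter-alpha-trypsin inhibitor heavy chain, was at 6.41 in KO and 5.97 in WT at 48 h, and at 6.94 in KO and 5.03, below background, in WT at 72 h. In each case KO at 72 h stood above the 48 h arrays and WT at 72 h stood under them, while the contralateral arrays were below background. None passed the genotype by protocol test (adjusted p = 0.483 for Mmp3, 0.0993 for Lox and 0.483 for Itih4).

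For another portion of the 72 h set, the contralateral hemisphere showed the same difference. Crebbp, a histone acetyltransferase, was at 6.97 in KO and 5.05, below background, in WT in ipsilateral tissue at 72 h, and at 7.29 in KO and 5.31, below background, in WT in contralateral tissue. Map1a and Map2, microtubule-associated proteins of neurons, had differences of 1.37 and 1.08 in ipsilateral tissue at 72 h and of 1.76 and 0.94 in contralateral tissue. For Map2 the other 4 probes gave 72 h differences between -0.47 and 0.27. Angptl4, a secreted inhibitor of lipoprotein lipase, had differences of 1.43 and 1.15, and by a second probe of 0.58 and 0.40.

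The 9 genes lower in KO at 72 h only were led by Pop4, a subunit of RNase P. Pop4 was at 8.99 in KO and 9.20 in WT at 48 h, and at 4.81, below background, in KO and 9.31 in WT at 72 h. It was likewise below background on both WT contralateral arrays (5.04 and 4.55) while the KO contralateral arrays stood at 9.25 and 9.22, so that this probe was either near 9 or at background without regard to genotype. Gpr17, a receptor of oligodendrocyte precursors, was at 7.49 in KO and 7.98 in WT at 48 h, and at 7.94 in KO and 9.25 in WT at 72 h. Its contralateral difference at 72 h was -0.24, and the genotype by protocol test gave an unadjusted p of 0.035 with an adjusted p near 1. Gkn3, Sc5d, Ltk, Tmem74, Ing2, Gnb4 and Phyhip make up the 9, with 72 h differences from -1.15 to -1.0. Other probes of Gnb4 and Tmem74, below background on both 72 h ipsilateral arrays, gave 0.05 and -0.50. In 4 of the 9, the contralateral 72 h difference was past 1.5-fold the same way, a count not made over all genes. Over the 9 that difference had a median of -0.56, against -0.02 over all genes.

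Arc, an immediate early gene of active synapses, was at 8.26 in KO and 9.66 in WT at 48 h, and at 8.18 in KO and 8.21 in WT at 72 h. The contralateral 48 h pair differed as much, with 8.33 in KO and 9.97 in WT. Of 21 measured immediate early genes, 16 were lower in KO at 48 h and 7 at 72 h, against 51.6% and 54.2% of all genes, with median differences of -0.21 and 0.21, and none passed limma. The contralateral median at 48 h was -0.52.

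The gene lists below are described by their counts and medians beside those of all genes, whose median differences were -0.01 at 48 h and -0.02 at 72 h, with 27.7% higher in KO in both pairs and 33.5% lower in both. Taken singly, 48.2% of all genes were higher in KO at 48 h and 45.7% at 72 h. In whole hemispheres, fewer cells of a type and less RNA per cell cannot be told apart.

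Among chemokines and their receptors, 20 of 39 listed genes were measured and 12 (60%) were higher in KO in both pairs. The median difference was 0.32 at 48 h and 0.65 at 72 h, or 0.44 and 0.65 with arrays below background at their floor. In limma 4 of the 20 rose, Ccl21a, Ccl21b, Ccl5 and Ccl6, and none fell. Ccl7, a monocyte attractant, was at 8.18 in KO and 7.70 in WT at 48 h, and at 7.92 in KO and 6.74 in WT at 72 h (adjusted p = 0.108). Of cytokines and their receptors, 24 of 42 were measured with medians of 0.12 and 0.17, and none passed limma. The contralateral medians of these 24 were 0.20 at 48 h and -0.02 at 72 h. Il11, a cytokine of the interleukin-6 family, had differences of 0.44 and 1.39 (adjusted p = 0.194). Il1b, the inflammasome product interleukin-1 beta, was at 6.41 in KO and 5.59 in WT at 48 h and below background on both 72 h arrays. The probes of Il6 and Tnf were detected on no array.

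Of the genes of recruited myeloid cells, 12 of 30 were measured, 9 of them higher in KO in both pairs, with median differences of 0.31 and 0.76. Contralateral tissue gave medians of 0.35 at 48 h and -0.04 at 72 h, and untreated brain -0.11. Clec4d rose and Cd93 itself fell, and no other member passed limma. The summed linear intensity of the 12 was 5361 in KO and 4450 in WT at 48 h, and 4752 in KO and 2377 in WT at 72 h. Genes of circulating blood moved the same way: 4 of the 5 measured of 18 were higher in KO in both pairs, with medians of 0.23 and 0.41. Their contralateral medians were 0.57 at 48 h and -0.08 at 72 h, and the untreated median was 0.09. Their summed ipsilateral intensity, mostly globin RNA, was 36049 in KO and 30809 in WT at 48 h, and 25465 in KO and 19625 in WT at 72 h. The part of blood in the myeloid differences was not tested. Of 29 lymphocyte genes 3 were measured, and all 3 were lower in KO in both pairs with medians of -0.17 and -0.30. One of them is Thy1 (-0.08 and -0.30), which is also on the list of general neuronal genes, and none passed limma.

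Genes of phagocyte activation were higher in KO in both pairs in 21 of 29 measured (72.4%), with medians of 0.16 and 0.34. The medians in contralateral tissue were 0.31 and 0.23, and that in untreated brain was 0.13. Lgals3, galectin-3 of activated phagocytes, was at 10.90 in KO and 10.37 in WT at 48 h, and at 11.84 in KO and 11.02 in WT at 72 h. Ms4a6d, a membrane protein of macrophages, was at 10.23 in KO and 10.01 in WT at 48 h, and at 10.13 in KO and 9.06 in WT at 72 h. Genes of resting microglia had medians of -0.22 and -0.07, with 7 of 15 lower in KO in both pairs and none higher. Gpr34, a lysophosphatidylserine receptor of microglia, was at 7.0 in KO and 7.54 in WT at 48 h, and at 7.67 in KO and 8.14 in WT at 72 h. Neither list had a member past the limma threshold.

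Interferon response genes were higher in KO in both pairs in 15 of 22 (68.2%) and lower in both in none, with medians of 0.27 and 0.21. Rsad2, the antiviral protein viperin, was at 8.12 in KO and 7.16 in WT at 48 h, and at 7.78 in KO and 7.34 in WT at 72 h. Antigen presentation genes had medians of 0.15 and 0.19, with 13 of 22 higher in KO in both pairs. Psmb8, a subunit of the immunoproteasome, was at 9.31 in KO and 8.61 in WT at 48 h, and at 9.88 in KO and 9.35 in WT at 72 h. No member of these 2 lists passed limma, and untreated brain gave medians of 0.22 and 0.09. The contralateral medians were 0.33 at 48 h and -0.06 at 72 h for interferon response, and 0.17 and 0.10 for antigen presentation. Complement genes were lower in KO at 48 h in 9 of 10 and higher at 72 h in 8 of 10, with medians of -0.22 and 0.16, and Cd59a was the 1 member that fell.

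Lists of vascular genes had larger median differences at 72 h than at 48 h, and this difference between protocols was called for Selp alone. Endothelium and barrier genes had medians of 0.14 at 48 h and 0.58 at 72 h, with 20 of 27 (74.1%) higher in KO in both pairs. The WT 72 h array was the lowest of the 4 in 22 of the 27, against 23.5% of all genes. Pecam1, an adhesion molecule of endothelial junctions, was at 9.35 in KO and 9.14 in WT at 48 h, and at 9.64 in KO and 8.46 in WT at 72 h. Vwf, von Willebrand factor, was at 10.69 in KO and 10.39 in WT at 48 h, and at 11.34 in KO and 10.39 in WT at 72 h. Cldn5, the claudin of barrier tight junctions, had differences of -0.06 and 0.80, while Kdr and Flt1, the receptors for VEGF, had differences of 0.05 and -0.14, and of 0.16 in each pair. The list thus did not move as 1 block, and none of its members passed limma. In contralateral tissue its median was 0.11 at 48 h and -0.01 at 72 h. Genes of activated endothelium had medians of 0.01 and 0.40. Past 2-fold at 72 h were Selp, Lrg1 and Angpt2, 3 of 17 and all higher in KO, against 0.717% of all genes. Lrg1, a glycoprotein that promotes vessel growth, was at 10.58 in KO and 10.28 in WT at 48 h, and at 10.97 in KO and 9.27 in WT at 72 h. Vcam1 and Icam1, which also bind leukocytes, had differences of -0.14 and -0.23, and of 0.01 and 0.40.

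Of the relatives and partners of CD93, 9 of 12 were measured. Mmrn2, its ligand multimerin 2, was at 8.65 in KO and 8.34 in WT at 48 h, and at 8.44 in KO and 7.56 in WT at 72 h. Igfbp7, another reported ligand, was at 11.65 in KO and 11.30 in WT at 48 h, and at 12.04 in KO and 10.94 in WT at 72 h. Thbd, thrombomodulin, a protein of the same family, had differences of 0.25 and 0.35. Apart from Cd93, none of the 9 passed limma.

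Matrix and scar genes had medians of -0.10 at 48 h and 0.53 at 72 h. At 48 h 8 of 22 were higher in KO and at 72 h 20 of 22, with 5 past 2-fold, all higher, at 72 h (0.717% of all genes) and none at 48 h. No member passed limma. Timp1, an inhibitor of matrix metalloproteinases, was at 9.81 in KO and 9.69 in WT at 48 h, and at 9.98 in KO and 8.60 in WT at 72 h. Col4a1, a collagen of the vessel basement membrane, was at 9.83 in KO and 10.08 in WT at 48 h, and at 10.01 in KO and 8.89 in WT at 72 h. Pericyte genes (8 of 15 measured) had medians of -0.03 and 0.31, and genes of meninges and fibroblasts (12 of 16) had medians of -0.08 and 0.17.

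Reactive astrocyte genes had medians of 0.19 at 48 h and 0.60 at 72 h, and 5 of 26 were past 2-fold at 72 h against 0.973% of all genes. Contralateral tissue gave medians of 0.24 at 48 h and 0.16 at 72 h, and untreated brain -0.07. Lcn2, lipocalin 2 of reactive astrocytes and neutrophils, was at 10.96 in KO and 10.57 in WT at 48 h, and at 10.37 in KO and 8.69 in WT at 72 h. Hspb1, a small heat shock protein, was at 10.34 in KO and 10.13 in WT at 48 h, and at 10.05 in KO and 8.54 in WT at 72 h. Socs3, a feedback inhibitor of cytokine signalling, had differences of 0.33 and 1.32. Gfap, the intermediate filament of astrocytes, was at 12.11 in KO and 12.45 in WT at 48 h, and at 12.14 in KO and 12.20 in WT at 72 h. Gfap, unlike those 3, was thus not higher in KO in either pair, and Vim had differences of -0.02 and 0.35. None of the 26 passed limma, and 8 of them are also on another list, among them Lcn2, Timp1 and Cd14. Resting astrocyte genes (14 of 18) had medians of -0.03 and 0.01.

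Glucocorticoid-responsive genes had medians of 0.09 at 48 h and 0.70 at 72 h in ipsilateral tissue, and of 0.35 and 0.61 in contralateral tissue. In ipsilateral tissue at 72 h 5 of 17 were past 2-fold, all higher in KO, against 0.717% of all genes. Plin4, a lipid droplet protein, was at 9.66 in KO and 8.90 in WT at 48 h, and at 9.84 in KO and 8.02 in WT at 72 h. Its contralateral levels at 72 h were 9.82 in KO and 8.16 in WT, close to the ipsilateral ones. No member passed limma, and Tsc22d3, a widely used marker of glucocorticoid action, had differences of -0.48 and -0.23.

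**Figure D5:**
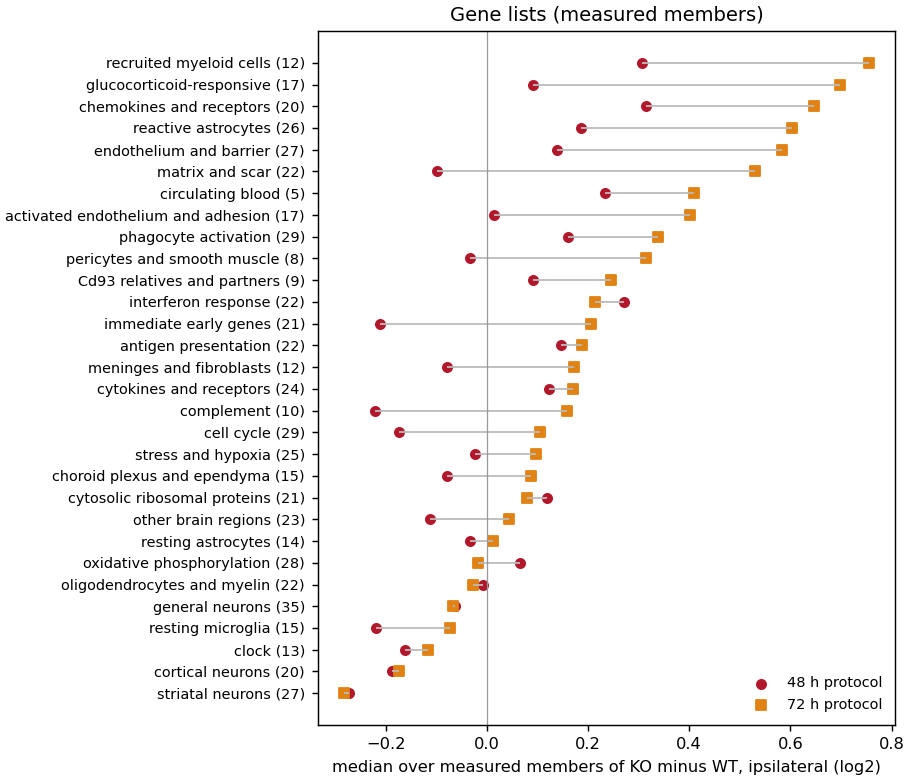
Median KO minus WT log2 difference in ipsilateral tissue over the measured members of each list (number in brackets), for the 48 h protocol (circles) and the 72 h protocol (squares). Lists of recruited myeloid cells, glucocorticoid-responsive genes, chemokines, reactive astrocytes, endothelium and matrix have their squares to the right of 0.5, and those of striatal and cortical neurons lie left of 0 in both protocols.

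Lists of neuronal genes had medians below 0 in both pairs. Among genes of striatal neurons 23 of 27 (85.2%) were lower in both, against 33.5% of all genes, with medians of -0.27 and -0.28. Rgs9, a regulator of G protein signalling in striatal spiny neurons, was at 9.12 in KO and 9.79 in WT at 48 h, and at 9.43 in KO and 9.91 in WT at 72 h. A second Rgs9 probe, below background on both 72 h arrays, gave differences of -0.40 and 0.10. Drd1 and Drd2, the dopamine receptors of striatal spiny neurons, had differences of -0.67 and -0.25, and of -0.13 and -0.29. In uninjured pairs the median was between -0.11 and -0.02. Cortical neuron genes were lower in both pairs in 15 of 20 (75%), with medians of -0.19 and -0.17. Their contralateral medians were -0.08 at 48 h and -0.14 at 72 h, and the untreated median was 0.01. Slc17a7, a vesicular glutamate transporter, was at 10.70 in KO and 11.06 in WT at 48 h, and at 10.86 in KO and 11.46 in WT at 72 h. General neuronal genes had medians of -0.06 and -0.07, with 16 of 35 lower and 9 higher in both pairs. Oligodendrocyte and myelin genes had medians of -0.01 and -0.03 over 22. No member of these 4 lists passed limma.

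Further lists had medians between -0.17 and 0.12 in each pair. Cell cycle genes had medians of -0.17 and 0.10 over 29 genes, and 1 of them fell in limma. This was Bub1b, a mitotic checkpoint kinase of chromosome 2, which was below background at 4.58 in KO and at 6.0 in WT at 48 h, and below background at 4.92 in KO and at 6.55 in WT at 72 h (adjusted p = 0.00446). Stress and hypoxia genes had medians of -0.02 and 0.10 over 25 genes. Hspb1, Mt2 and Cdkn1a, 3 of the 25, were higher in KO past 2-fold at 72 h, against 0.717% of all genes. Clock genes had medians of -0.16 and -0.12 over 13 genes. Of these, 7 (53.8%) were lower in KO in both pairs, against 33.5% of all genes. Genes of choroid plexus and ependyma had medians of -0.08 and 0.09 over 15. Cytosolic ribosomal protein genes had medians of 0.12 and 0.08 over 21 genes. Of these, 14 (66.7%) were higher in KO in both pairs, against 27.7% of all genes. Oxidative phosphorylation genes had medians of 0.07 and -0.02 over 28.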

How the data were processed

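RNA of 10 mouse brain samples was extracted with Trizol and hybridized as biotinylated cRNA to Illumina bead arrays, per the labels. The deposited intensity values are non-normalized bead intensities on a linear scale, per the file headers, and the software behind them is not given in the sources used here. The detection p-value deposited with each intensity rises with intensity, so it runs as 1 minus p, which was subtracted from 1. The value table deposited by the authors holds intensity that was quantile-normalized in 5 pairs of arrays, none with ipsilateral KO and WT together, so it was not used.

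Intensities were corrected in limma 3.58.1 (R 4.3.3) with nec at offset 16, quantile-normalized over 10 arrays and converted to log2. Of the 46373 probes, 29800 were named for 1 gene, 10 for several and 16563 for none by the platform annotation, and 29758 matched RefSeq (GRCm38.p6). Those detected (p under 0.01) on at least 2 arrays numbered 12571, and the brightest stood for each of 9351 genes.

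A below-background array was raised to its lowest detected signal, or to the probe's own value if higher, and a pair with both arrays below gave no call. The limma model held 5 conditions with a genotype term for ipsilateral and another for uninjured pairs (3 residual degrees of freedom). With separate terms for each protocol there were 2, all from uninjured pairs. The variance of each gene was moderated in limma towards a value shared over all genes. The prior degrees of freedom were 6.01 for the first model and 6.51 for the second. P-values were adjusted by Benjamini-Hochberg over all genes, with a threshold of 0.05, and measure only the spread between these arrays. The fits were tested on simulated data with known differences. With true log2 differences of 1 and 2 in 100 genes each, the mean of both pairs called 85% and 99%. The ipsilateral minus uninjured difference called 64% and 97%, and genotype by protocol 0% and 50%. Few calls by the last test thus do not show that differences of 2-fold were absent.

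The comparison and the 32 gene lists were chosen with earlier results of these data known. Named were the 10 highest and 10 lowest genes past 2-fold in both pairs, 6 and 6 of each protocol only, 8 and 8 past the mean test, 6 and 6 past each other test, up to 4 members of each list, together with Cd93, Gfap, Il1b, Il6, Tnf and the Ccl21 genes. Predicted transcripts were skipped. Other genes named were chosen after their values were seen. Alternatives were other background corrections, normalizations, detection filters, probes, fold thresholds, variance models and sets of arrays, and 1 on contralateral differences chosen after seeing the data.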

Additional observations from a re-analysis of the deposited data

Results flagged for a closer look

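The KO minus WT difference in ipsilateral tissue differed between the 48 h and 72 h protocols for 3 genes, by the genotype by protocol test in limma. For Cxcl1 the 48 h minus 72 h difference was -2.54 (adjusted p = 0.0307), with KO lower than WT at 48 h and higher at 72 h. For Selp it was -2.53 (adjusted p = 0.0307), with similar levels at 48 h and KO higher at 72 h. For Arg1 it was -2.41 (adjusted p = 0.0415), with KO higher in both pairs. The error of this test comes from 3 uninjured pairs in which these genes were below background, and no ipsilateral array has a replicate.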

How the results depend on the processing

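Pairing by replicate number was not possible, since each group is 1 array and the labels carry no such numbers. The labels do name an ipsilateral and a contralateral array for each genotype under each protocol. Whether these 2 hemispheres were taken from 1 animal is not stated. The limma fits held no term that links these 2 arrays and treated them as independent. How such a link would change the p-values was not tested. KO and WT arrays were paired by condition, which the limma model already holds as a block. The authors' value table was not run as an alternative, since its pairs do not hold KO and WT of the same ipsilateral condition. Median centring shifted the median difference of all genes to 0.09 at 48 h and -0.11 at 72 h. It made the genes past 2-fold at 48 h alone 8, against 1, with 23 higher genes at 48 h, against 12, while the other totals past 2-fold stayed within 1.5 times. Without background correction, 16 genes were past 2-fold at 48 h, 53 at 72 h, 14 in both and 33 at 72 h alone, and with an offset of 50 these counts were 16, 52, 14 and 34. At 1.5-fold the counts at 48 h, 72 h, in both, at 48 h alone and at 72 h alone were 133, 429, 61, 72 and 368, and at 3-fold they were 9, 27, 7, 0 and 10. Leaving aside genes past 1.5-fold the same way in contralateral tissue of the same protocol gave 4, 45, 3, 0 and 34, a setting chosen after seeing the data. With no detection filter 3 genes were past 2-fold at 48 h alone, and with every probe 2. The mean of both pairs gave 14 calls with no detection filter, 20 among genes detected on all 4 ipsilateral arrays, 55 with every probe, 12 from the 4 ipsilateral arrays alone, and 112 with 1 genotype term. The genotype by protocol test gave 0 calls with no filter (534 with an unadjusted p under 0.05), 1 among genes detected on all 4 arrays, and 0 with every probe (242). Leaving out 1 array at a time, the calls ranged from 8 to 46 for the mean, 0 to 4 for the ipsilateral minus uninjured difference and 0 to 16 for genotype by protocol. Within 10 and within 50 genes of Cd93 on each side, 5% of genes were called. The Cd93 call was lost with no filter (adjusted p = 0.133) and with the 4 ipsilateral arrays alone (0.054). Cxcl1, Selp and Arg1 did not pass genotype by protocol with no filter (0.28, 0.28 and 0.298). Another probe of Ttpal reversed its mean difference to 0.23. The cause of these changes was not tested. With 1 array a group, the number of arrays limits the precision, and levels near background are bounds.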

Other observations

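Of 10 sex-linked genes listed, 3 were measured in ipsilateral tissue, with median KO minus WT log2 differences of -0.07 at 48 h and 0.13 at 72 h, and none passed limma.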
